A study of Mus musculus with 6 samples.

Results

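Most of the genes described here set the pace of the G1 phase of the cell cycle or brake it. These are the D cyclins Ccnd2 and Ccnd3, the kinases Cdk4 and Cdk6, and the CDK inhibitors Cdkn1a, Cdkn1b, Cdkn2c and Cdkn2d. The stress-response genes Gadd45a and Gadd45b were taken with them. All were chosen by name, 10 genes out of 16110 on the array, with earlier results of these data known. Shares of these genes set against all genes are therefore descriptions and not tests. Every probe annotated with one of these symbols was taken. Probes were found for 9 of them, 17 probes in all. No probe carried the symbol Cdk4, which was not analysed here. The study put RNA from B cells of mouse spleens on 6 Illumina bead arrays, 3 of the TRAF3KO group (TRAF3-/- B cells, called premalignant in the labels) and 3 of the Control group (normal B cells). The labels name no strain, age, sex or treatment, no promoter or Cre line behind the deletion, no time of sampling, and do not say whether each array held a separate mouse. Every p-value thus reflects only how these arrays varied, part of which may be technical. No probe carried the symbol Traf3, so the deletion could not be checked from the arrays.

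D cyclins bind and activate CDK4 and CDK6, which phosphorylate the RB protein and release E2F transcription factors that drive entry into S phase. The INK4 inhibitors encoded by Cdkn2c (p18) and Cdkn2d (p19) bind CDK4 and CDK6 themselves, and the CIP/KIP inhibitors encoded by Cdkn1a (p21) and Cdkn1b (p27) bind cyclin and kinase complexes. GADD45 proteins are small stress-induced proteins that bind PCNA, CDK1 and the kinase MAP3K4. In B cells Ccnd2 is induced by signals through the antigen receptor, and Ccnd3 serves dividing precursors and germinal centre cells. TRAF3 restrains non-canonical NF-kB signalling and the survival of resting B cells, and the comparison asks which genes differ when it is missing.

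Gadd45a and Cdkn2d fell in the TRAF3KO cells, to 73.2% and 65.7% of their Control intensity, and none of the other genes passed the test. Of the 9 genes, 8 had a lower mean in TRAF3KO, against 49.3% of all genes tested, and 1, Ccnd2, a higher one. The test was limma on log2 intensities, with a call at an adjusted p under 0.05 (Benjamini-Hochberg) over all 15657 probes kept after a filter on dim ones. Each gene was represented by its brightest kept probe, and all 9 genes passed the filter. The 2 calls among 9 genes, both lower, stood against a background of 4.44% of the 10304 genes tested, 2.14% called lower and 2.3% called higher. Among genes with a mean log2 intensity of 8 or more, where 7 of the 9 genes lay, 7.08% were called (3.4% lower and 3.68% higher) and 49.6% had a lower mean. The median difference of the 9 genes was -0.32 (log2), against 0.004 over all genes tested.

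**Figure D1:**
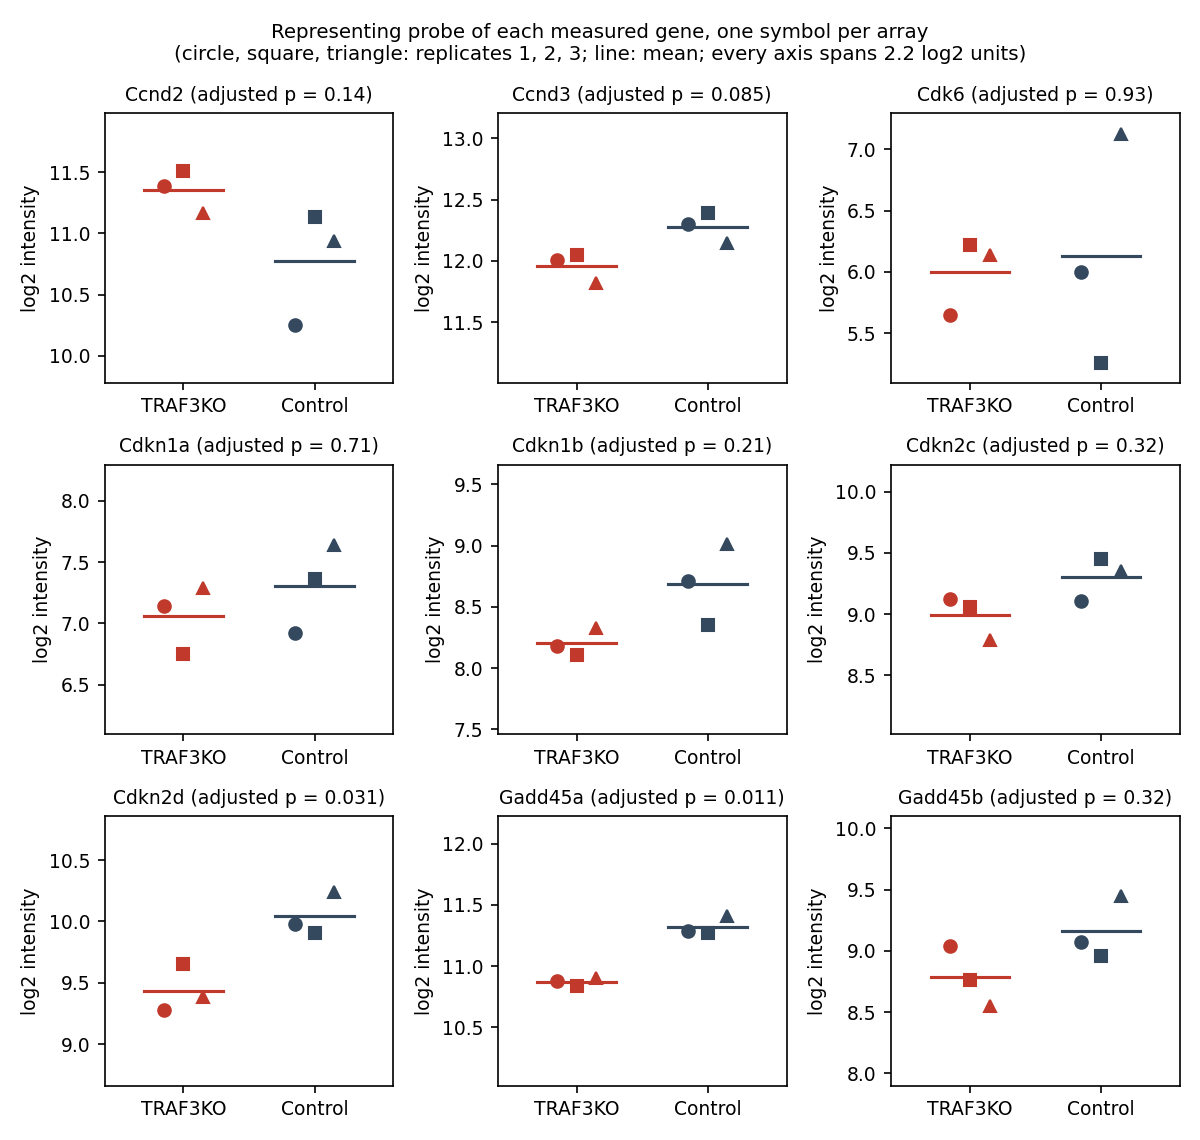
Log2 intensity of the representing probe of each of the 9 genes (vertical axes, each spanning the same range) in the 3 TRAF3KO arrays (left, red) and the 3 Control arrays (right, dark blue). Symbols are arrays and lines are group means. The groups are apart and called for Cdkn2d and Gadd45a, apart but not called for Ccnd2, Ccnd3 and Cdkn1b, and overlap for the other 4 genes.

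Gadd45a, which is induced by DNA damage and by withdrawal of growth factors, read 10.88, 10.84 and 10.90 (log2 intensity) on TRAF3KO replicates 1, 2 and 3, against 11.29, 11.27 and 11.41 on Control replicates 1, 2 and 3. The TRAF3KO arrays lay within a narrow band below every Control array. The difference was -0.45 ± 0.08 (log2, TRAF3KO minus Control, with its SE; adjusted p = 0.011, limma; SD 0.03 and 0.07, n = 3 each). A second Gadd45a probe read 10.55, 10.43 and 10.67 in TRAF3KO against 11.25, 10.85 and 11.09 in Control. It was called as well, at -0.52 ± 0.11 (adjusted p = 0.032, limma), so both probes of the gene gave the same direction and a similar size. Ordered by p, 209 of the 10304 genes came before Gadd45a, but 2915 had a larger absolute difference, and the SDs above show how small the spread between its arrays was. It was lost without Control replicate 3 (adjusted p = 0.0501, limma) and kept without any other array. It was also lost without a trend in the variance model (adjusted p = 0.12) and without moderation of the variances (0.076).

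Cdkn2d, the INK4 inhibitor p19, read 9.28, 9.65 and 9.38 in TRAF3KO against 9.98, 9.91 and 10.24 in Control. Its groups did not overlap, with TRAF3KO replicate 2 nearest to Control. The difference was -0.61 ± 0.13 (log2; adjusted p = 0.031, limma; SD 0.19 and 0.18, n = 3 each), and 1 probe measured the gene, so no second probe checks it. This call was lost without TRAF3KO replicate 1 (adjusted p = 0.11), TRAF3KO replicate 3 (0.082), Control replicate 1 (0.090) or Control replicate 3 (0.12), while the difference stayed between -0.71 and -0.51 over all 18 alternatives. It was also lost with no filter on dim probes (0.21), without a trend (0.20) and without moderation (0.24). Cdkn2c, the INK4 inhibitor p18, which limits the division of B cells turning into plasma cells, read 9.12, 9.06 and 8.79 in TRAF3KO against 9.11, 9.45 and 9.35 in Control. TRAF3KO replicate 1 and Control replicate 1 were level, so the groups overlapped. Its difference of -0.31 ± 0.14 did not pass (adjusted p = 0.32, 95% interval -0.63 to 0.00). The dimmer Cdkn2c probe read 8.10, 8.31 and 7.82 in TRAF3KO against 8.45, 8.43 and 8.51 in Control, at -0.38 ± 0.17 (adjusted p = 0.30). There the groups did not overlap, and the probe was not called either.

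The promoters of the 2 called genes and of Gadd45b, the paralogue that was not called, are shown to describe the elements next to their start sites. The elements were chosen after the values were seen, and no link between an element and a difference was tested. RefSeq (GRCm38.p6) held a promoter entry for 9 of the 10 genes, with 12 start sites. Ccnd2 had no entry and was not searched. Each line gives the 250 bases before the start, 5′ to 3′ on the gene's strand. Gadd45a lies on the minus strand (chr6:67037408-67037657), Cdkn2d on the minus strand (chr9:21291210-21291459) and Gadd45b on the plus strand (chr10:80929841-80930090). Capitals mark CCAAT, the GC box GGGCGG, the octamer ATGCAAAT and the E box CACGTG, each searched on both strands.
Gadd45a: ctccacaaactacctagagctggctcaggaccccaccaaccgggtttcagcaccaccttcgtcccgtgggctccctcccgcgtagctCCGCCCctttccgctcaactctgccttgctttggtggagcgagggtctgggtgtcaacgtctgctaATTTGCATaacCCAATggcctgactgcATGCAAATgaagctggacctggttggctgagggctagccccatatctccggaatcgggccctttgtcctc
Cdkn2d: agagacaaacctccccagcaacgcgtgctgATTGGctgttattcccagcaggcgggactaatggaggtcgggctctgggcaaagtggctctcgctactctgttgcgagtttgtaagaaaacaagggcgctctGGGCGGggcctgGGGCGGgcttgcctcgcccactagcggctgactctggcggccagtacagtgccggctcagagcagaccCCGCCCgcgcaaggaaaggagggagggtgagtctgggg
Gadd45b: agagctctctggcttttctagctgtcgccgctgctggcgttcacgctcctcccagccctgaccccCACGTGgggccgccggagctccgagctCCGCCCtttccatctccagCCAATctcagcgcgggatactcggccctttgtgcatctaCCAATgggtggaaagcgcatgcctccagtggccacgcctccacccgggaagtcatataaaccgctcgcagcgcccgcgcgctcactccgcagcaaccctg
The Gadd45a window held 2 octamers, with first bases 97 and 70 bases before the start, on either side of a CCAAT box at 86. The octamer, which POU factors such as OCT1 and OCT2 bind, was in 1.6% of 32851 windows of that length and in none of the other 11 start sites of these genes. CCAAT was in 33.8% of all windows and in all 3 printed ones. The GC box was in 32.7% of all windows, with 3 copies in Cdkn2d and 1 each in Gadd45a and Gadd45b. The E box of Gadd45b was in 6.02% of all windows, and also in those of Cdk4 (4 copies) and Cdk6 (1 copy). A FOXO site (GTAAACA, in 3.17% of windows) was in 1 of the 2 Ccnd3 start sites and in no other gene searched. The NF-kB consensus (in 7.25%) was in none of the genes searched, which leave out Ccnd2. None of the marked motifs overlapped another, and a match is a description of letters, not a bound site.

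Gadd45b, known as a gene that NF-kB induces, read 9.04, 8.76 and 8.55 in TRAF3KO against 9.07, 8.96 and 9.45 in Control. TRAF3KO replicate 1 lay above Control replicate 2, so the groups overlapped. The difference was -0.38 ± 0.17 and was not called (adjusted p = 0.32, 95% interval -0.76 to 0.01), an interval that holds both 0 and the change of Gadd45a. Without Control replicate 3 it was -0.23. Within each array the log2 ratio of Gadd45a to Gadd45b differed by -0.07 ± 0.18 between the groups (two-sided exact permutation p = 0.8).

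The D cyclins ran in opposite directions without either being called. Ccnd2 read 11.39, 11.51 and 11.17 in TRAF3KO against 10.25, 11.13 and 10.94 in Control. Every TRAF3KO array was above every Control array, and Control replicate 1 was far below the other Control arrays. The difference was 0.58 ± 0.19 (adjusted p = 0.14, 95% interval 0.16 to 1.00), 1.5-fold higher in TRAF3KO. Without Control replicate 1 it was 0.32, and without Control replicate 2 it was 0.76. Ccnd3 read 12.01, 12.05 and 11.82 in TRAF3KO against 12.30, 12.39 and 12.15 in Control. Its groups did not overlap either, and the difference of -0.32 ± 0.09 was just short of a call (adjusted p = 0.085, 95% interval -0.52 to -0.12). A second Ccnd3 probe differed by -0.61 ± 0.18 (adjusted p = 0.11) and a dim, remaining one by -0.34 ± 0.44 (adjusted p = 0.76), so all 3 probes had a lower mean in TRAF3KO.

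The ratio of the 2 D cyclins within each array removes what an array shares between them. The log2 ratio of Ccnd2 to Ccnd3 was -0.62, -0.54 and -0.66 in TRAF3KO against -2.05, -1.26 and -1.21 in Control. It differed by 0.90 ± 0.27, with groups that did not overlap (two-sided exact permutation p = 0.1, the smallest that 3 arrays against 3 can give). The adjusted p was 0.4 over the 4 pairs of paralogues compared by this test. The pairs were chosen after the values were seen. With Ccnd2 higher and Ccnd3 lower without overlap, their ratio could not overlap either, and Control replicate 1 lay furthest from TRAF3KO. The ratios of Cdkn1a to Cdkn1b and of Cdkn2c to Cdkn2d differed by 0.24 ± 0.26 and 0.29 ± 0.20, with groups that overlapped (exact permutation p = 0.6 and 0.3). Probes differ in how well they bind, so the level of a ratio has no meaning and only its change was compared.

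**Figure D2:**
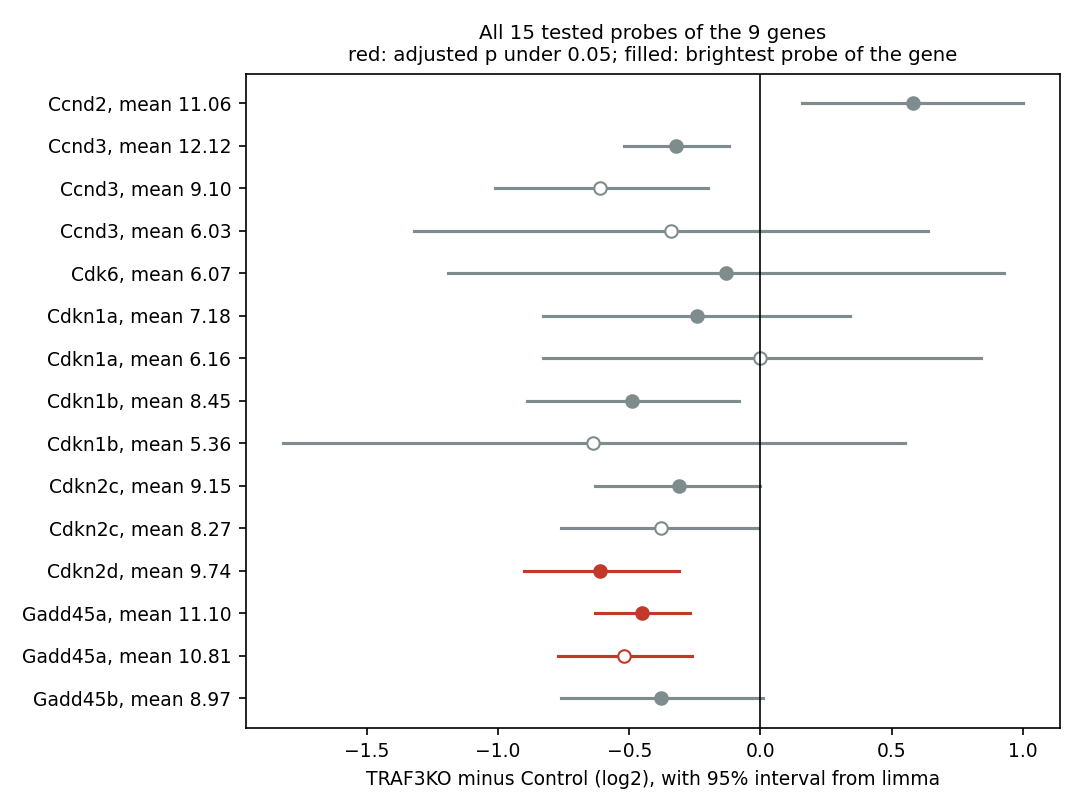
Difference in log2 intensity (horizontal axis, TRAF3KO minus Control) with its 95% interval for each of the 15 tested probes of the 9 genes, listed with the probe's mean log2 intensity. The 3 called probes, 2 of Gadd45a and 1 of Cdkn2d, lie below 0, Ccnd2 lies above 0, and the dim probes have the widest intervals.

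Among the CIP/KIP inhibitors, Cdkn1b read 8.18, 8.11 and 8.33 in TRAF3KO against 8.71, 8.35 and 9.01 in Control. TRAF3KO replicate 3 and Control replicate 2 nearly touched. The difference was -0.49 ± 0.18 and was not called (adjusted p = 0.21, 95% interval -0.89 to -0.08), and a dim second probe differed by -0.64 ± 0.54 (adjusted p = 0.61). Another Cdkn1b probe was at the floor of the scale (log2 of 0) on all 6 arrays and did not pass the filter. Cdkn1a, a target of p53, read 7.14, 6.75 and 7.29 in TRAF3KO against 6.92, 7.36 and 7.64 in Control, and the groups overlapped widely. Its difference of -0.24 ± 0.26 had a 95% interval of -0.83 to 0.34 (adjusted p = 0.71). It was -0.08 without Control replicate 3, -0.09 without TRAF3KO replicate 2 and -0.44 without Control replicate 1. A second probe differed by 0.00 ± 0.38, and another was at the floor on 2 arrays and did not pass the filter. Cdk6, a kinase partner of the D cyclins, was the dimmest of these genes, at 5.65, 6.22 and 6.14 in TRAF3KO against 6.0, 5.26 and 7.13 in Control. The Control arrays spread more widely than the groups differed (-0.13 ± 0.48, 95% interval -1.19 to 0.93, adjusted p = 0.93). That interval holds both a fall and a rise of Cdk6, so these arrays leave its direction open.

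Of the 9 genes, 5 had groups that did not overlap, 4 lower and 1 higher in TRAF3KO. The background was 22.4% of all genes tested (11.4% lower and 11% higher) and 28.7% of those with a mean log2 intensity of 8 or more (14.9% lower and 13.8% higher). In the plot of difference against level, Ccnd2, Ccnd3, Cdkn2d and Gadd45a lie among or beside the called genes of like brightness, and the other 5 lie further inside the cloud.

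**Figure D3:**
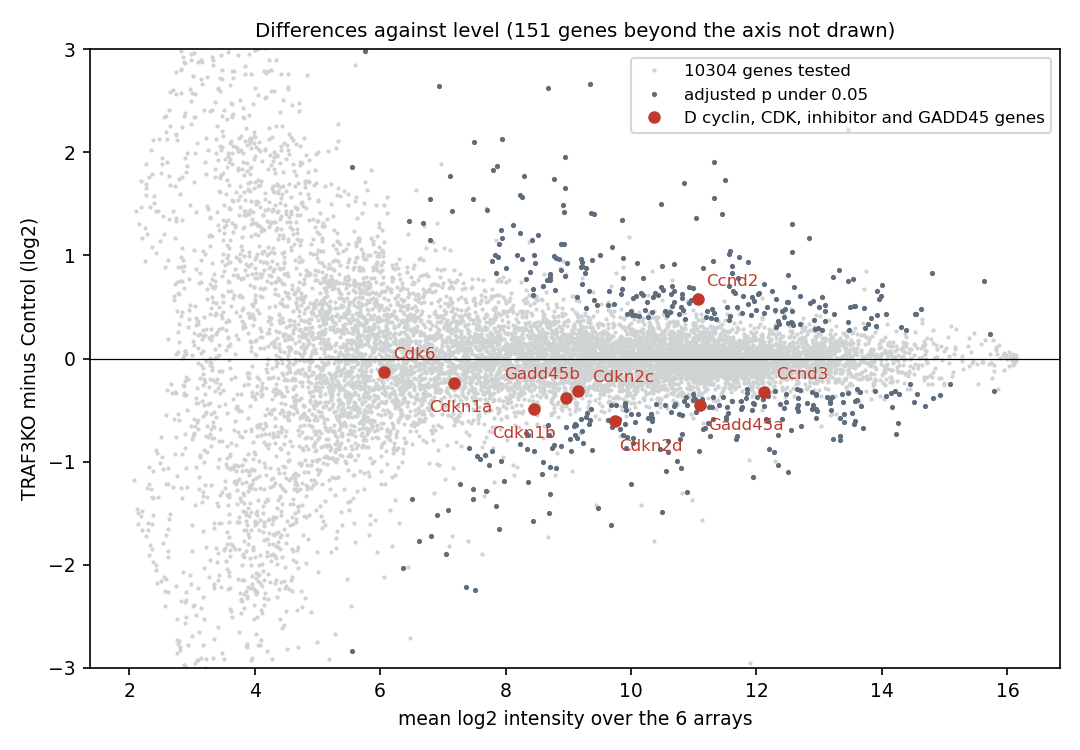
Difference in log2 intensity (vertical axis, TRAF3KO minus Control) against mean log2 intensity over the 6 arrays (horizontal axis) for the genes tested, with called genes dark grey and the 9 genes in red. The spread of all genes widens at low intensity, where Cdk6 and Cdkn1a lie, and 151 genes beyond the vertical axis are not drawn.

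Levels of the sex-specific genes Xist and Eif2s3y divided the arrays as well: TRAF3KO replicate 1 and Control replicates 1 and 3 read as male, the other 3 as female. Gadd45a differed by -0.47 among the male arrays (1 TRAF3KO against 2 Control) and by -0.40 among the female ones (2 against 1), and it was called with sex as a block. Cdkn2d differed by -0.83 and -0.39 and was not called with sex as a block (adjusted p = 0.065). Of the other genes, Ccnd2 differed by 0.80 and 0.21, Ccnd3 by -0.21 and -0.45 and Cdkn1b by -0.68 and -0.13, each with the same sign in both sexes.

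By the distance between centred log2 values over the 6 arrays, the genes nearest to Gadd45a were Ints4, Laptm4a and Rab3a, at root mean square distances of 0.033, 0.044 and 0.045 among 10303 genes. Those nearest to Cdkn2d were Elmod3, Selp and Ifi214, at 0.072, 0.079 and 0.087. Gadd45a was at rank 55 from Cdkn2d, at a distance of 0.159, ahead of Cdkn1b (rank 155) and the other measured genes of the group. From Gadd45a, however, Cdkn2d was at rank 620 (0.159), behind Ccnd3 (rank 577, 0.156) and Cdkn1b (rank 617). These distances hold the group difference in them and carry no test.

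Other genes of the same families did not pass. The list held Ccnd1, Cdk2, Cdkn1c, Cdkn2a, Cdkn2b, Gadd45g, Ccne1, Ccne2 and Cdc25a. Of the 9 tested, 0 were called by limma or by the linear model without moderation (median difference 0.29). At an unadjusted p under 0.05, 1 was higher, against 8.35% of all genes tested. Gadd45g, the remaining GADD45 gene, read 12.17, 12.29 and 12.22 in TRAF3KO against 12.17, 11.47 and 12.03 in Control. Its difference was 0.34 ± 0.15 (adjusted p = 0.29), on the other side of 0 from Gadd45a and Gadd45b, but 0.13 without Control replicate 2, the lowest array. The E cyclin Ccne1, which acts with CDK2 at the entry to S phase, differed by 0.65 ± 0.32 (adjusted p = 0.35, and 0.31 without Control replicate 3). The phosphatase Cdc25a differed by 0.29 ± 0.15 (adjusted p = 0.38). The groups did not overlap for Ccne1, Cdc25a and Gadd45g, as for 22.4% of all genes tested. For Gadd45g, TRAF3KO replicate 1 and Control replicate 1 were nearly level. Ccnd1, the D cyclin that B cells make least, differed by -0.29 ± 0.24 (adjusted p = 0.61) and Cdk2 by -0.03 ± 0.07 (adjusted p = 0.88). Cdkn1c, Cdkn2a and Cdkn2b differed by 0.42 ± 0.39, 0.17 ± 0.52 and -0.85 ± 0.58, and Ccne2, at the floor on 1 Control array, by 2.41 ± 1.48.

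Downstream of the D cyclins, 1 of 12 tested genes of the RB and E2F list rose and 1 fell (median difference 0.02). Both are partners with which E2F proteins bind DNA. The 2 calls were 16.7% of the list, against 4.44% of all genes tested and 7.08% of those with a mean log2 intensity of 8 or more. Tfdp1 read 10.80, 10.84 and 10.56 in TRAF3KO against 10.02, 10.20 and 10.13 in Control, a rise of 0.61 ± 0.11 (adjusted p = 0.0084). Its call was kept when any 1 array was left out, and lost with no filter on dim probes (0.094), without a trend (0.12) and without moderation (0.13). Tfdp2 read 7.15, 7.40 and 7.06 in TRAF3KO against 8.22, 8.01 and 8.19 in Control, a fall of 0.93 on the log2 scale (SE 0.19, adjusted p = 0.021). The Tfdp2 call was lost in the same 3 fits (adjusted p = 0.067, 0.074 and 0.10), with inferred sex as a block (0.053), with the mean of its probes (-0.62, adjusted p = 0.17) and without TRAF3KO replicate 1 or 3 or Control replicate 1 or 3 (adjusted p = 0.067, 0.059, 0.10 and 0.084). Of 17 tested S phase and mitosis genes 2 rose and 1 fell (median 0.23), or 17.6%, against 4.44% of all genes tested and 7.08% of those with a mean log2 intensity of 8 or more. Tk1, which makes thymidine nucleotides, rose by 1.70 ± 0.12 (adjusted p = 2.7e-05, lost without moderation at 0.0545 and kept in the other 17 alternatives). The rise of Tyms (0.90 ± 0.21) was lost without any 1 array other than Control replicate 2 (adjusted p = 0.078 to 0.14), with the mean of its probes (0.70, adjusted p = 0.26) and with inferred sex as a block (0.060). Cenpa, a centromere histone, fell by 0.42 (SE 0.09), lost without TRAF3KO replicate 2 or 3 or Control replicate 1 or 3 (adjusted p = 0.0539 to 0.12) and with inferred sex as a block (0.056).

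Among the upstream lists, 0 of 15 tested FOXO factors and targets rose and 2 fell (median difference -0.29), or 13.3% called, against 4.44% of all genes tested. At an unadjusted p under 0.05, 8 of the 15 were lower, against 8.55% of all genes tested (8.35% were higher). FOXO factors are also known to induce Cdkn1b and Gadd45a, which were not counted in this list. FOXO activity was not measured, and its part in any of these differences was not tested. Txnip, which binds thioredoxin, read 12.59, 12.28 and 12.28 in TRAF3KO against 12.96, 12.87 and 13.29 in Control, a fall of 0.65 on the log2 scale (SE 0.12, adjusted p = 0.011, lost without TRAF3KO replicate 2 at 0.056). With no filter, without a trend and without moderation its adjusted p was 0.22, 0.20 and 0.24, so it was lost there too, as were the calls of Klf2, Bbc3, Tyms and Cenpa (adjusted p = 0.18 to 0.33). Klf2, a quiescence factor, fell by 0.42 (SE 0.08), lost without TRAF3KO replicate 1 or 3 or Control replicate 1 or 3 (adjusted p = 0.053 to 0.055), and Foxo1 differed by 0.08 (adjusted p = 0.62). Of 20 tested p53 targets and regulators 1 rose and 0 fell (4 higher and 4 lower at an unadjusted p under 0.05; median -0.01). It was Bbc3, a pro-apoptotic gene, at 1.11 ± 0.23, lost without TRAF3KO replicate 1 or 2 or Control replicate 1 or 2 (adjusted p = 0.059 to 0.10) and with the mean of its probes (1.49, adjusted p = 0.17). Among 9 MAP kinase genes downstream of GADD45 proteins 0 were called by limma or by the linear model without moderation (2 lower at an unadjusted p under 0.05), with Mapk14 at -0.14 ± 0.08 and Mapkapk2 at -0.03 ± 0.08.

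The other 2 lists had no call by limma or by the linear model without moderation. Of 12 tested ubiquitin pathway and kinase genes that act on the inhibitors and D cyclins, 0 were below an unadjusted p of 0.05. The 2 brightest, Rbx1 and Cdc34, differed by -0.01 ± 0.06 and 0.02 ± 0.08. Cks1b and Cks2 of this list did not pass the filter on dim probes. Of 14 MYC and growth response genes 3 were higher at an unadjusted p under 0.05, against 8.35% of all genes tested. The immediate early gene Egr1 read 15.05, 13.22 and 14.24 in TRAF3KO against 13.67, 13.14 and 13.15 in Control (0.85 ± 0.35, adjusted p = 0.25). Egr1 was called without TRAF3KO replicate 2 (1.32, adjusted p = 0.017), and Max differed by -0.18 ± 0.10 (adjusted p = 0.40).

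**Figure D4:**
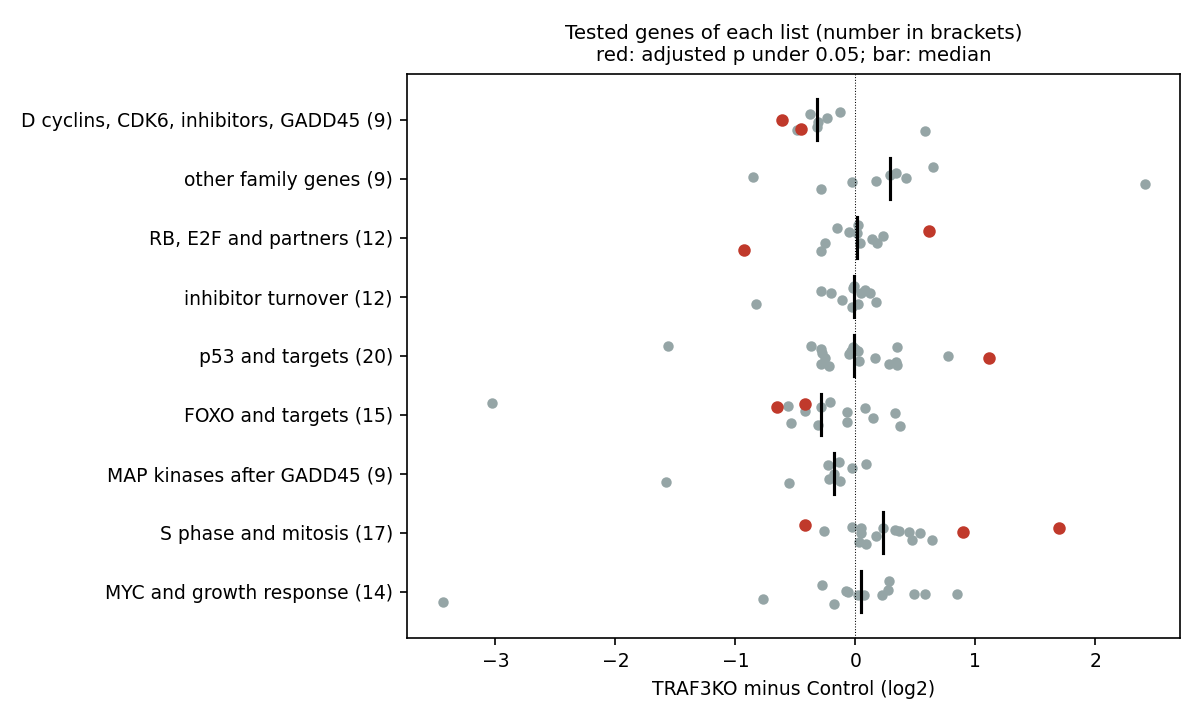
Difference in log2 intensity (horizontal axis, TRAF3KO minus Control) of every tested gene of each pathway list, with the number of tested genes in brackets, called genes in red and a bar at the median. Of the 9 lists drawn, which leave out the cell type markers, that of the genes described here (median -0.32) and the FOXO list (-0.29) have the medians furthest below 0.

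The B cell markers Cd79a, Cd79b and Cd74 averaged 15.98, 16.06 and 16.12 in TRAF3KO and 15.99, 16.07 and 16.13 in Control. These levels are at the top of the scale, where differences may not show, so they bear out the label without comparing the groups. Of 9 tested B cell markers 1 was called (Fcrla, fell by 0.32). The background for this and the following marker lists was 4.44% of all genes tested. Of 8 tested markers of monocytes and macrophages 2 fell, C1qc and Lyz2, with a median difference of -1.67 (0.05 for Adgre1, the brightest), and a summed intensity of 1327 to 2129 in TRAF3KO against 1900 to 5249 in Control. Lyz2 read 9.16, 8.95 and 8.52 in TRAF3KO against 10.60, 9.44 and 11.42 in Control, highest on Control replicate 3. That array was also highest for Gadd45a, Gadd45b, Cdk6, Cdkn1a, Cdkn1b and Cdkn2d. The tested markers of this list were divided. Vcam1, Mrc1 and Marco were highest on Control replicate 3 too. C1qc was highest on Control replicate 1 (8.66, against 8.42 on Control replicate 3), as were C1qb and Cd14. Adgre1 was highest on TRAF3KO replicate 2 (10.33). Of the erythroid list 1 of 6 was called (Car2, lower). Its summed intensity, 66322 to 79805 in TRAF3KO and 79144 to 83450 in Control, is mostly Hba-a1, which was at the top of the scale (16.05 in TRAF3KO and 16.12 in Control). The next brightest, Alas2, averaged 11.39 in TRAF3KO and 12.38 in Control (adjusted p = 0.35), and Slc4a1 averaged 7.82 in TRAF3KO and 9.55 in Control (adjusted p = 0.37). T cell, NK cell and neutrophil markers had 0 of 6, 0 of 4 and 0 of 4 called by limma (2 lower T cell genes at an unadjusted p under 0.05, and 0 in the others), the brightest being Cd8b1 (7.35), Prf1 (11.52) and Elane (5.05), and Cd8a, Ncr1, Gzmb and Eomes were at the floor on all arrays. Their summed intensities were 255 to 477, 2741 to 3356 and 100 to 151 in TRAF3KO, against 292 to 496, 2399 to 3808 and 170 to 355 in Control. Most of the NK cell sum is Prf1. Of 5 dendritic cell genes Cst3 was lower and Zbtb46 higher. Zbtb46 read 6.35, 6.51 and 7.02 in TRAF3KO and was at the floor on all 3 Control arrays. It passed the filter only through the TRAF3KO arrays, so the floor sets the size of its difference. Itgax was at the floor on all arrays. The sum of the list, 15305 to 17218 in TRAF3KO against 21995 to 25775 in Control, is mostly Cst3 (13.94 in TRAF3KO and 14.56 in Control). Of 6 plasma cell genes Xbp1 was higher and Sdc1 lower, and Mzb1, the brightest, was not called (0.18, adjusted p = 0.13). The sum of this list, 68539 to 75156 in TRAF3KO against 61206 to 63621 in Control, is mostly Mzb1. It lay near the top of the scale (15.86 in TRAF3KO and 15.68 in Control). The part of these cells in the differences above was not tested, and in bulk RNA fewer cells of a type and less RNA per cell cannot be told apart.

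**Figure D5:**
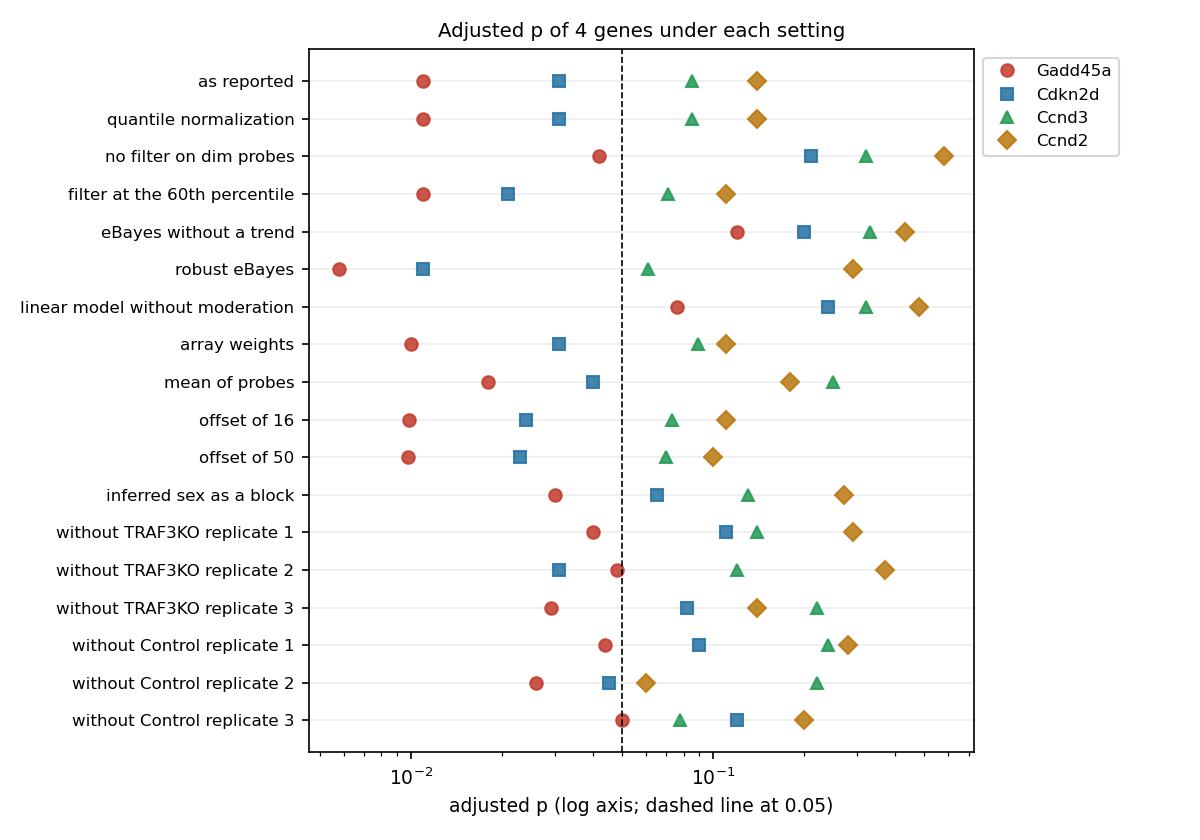
Adjusted p (horizontal log axis, dashed line at 0.05) of Gadd45a, Cdkn2d, Ccnd3 and Ccnd2 as reported and with other processing or without each array (rows; the fit with replicate number as a block is not drawn). Gadd45a lies right of the line in 3 rows, in 1 of them barely (0.0501), Cdkn2d in 8, and Ccnd3 and Ccnd2 lie to its right throughout.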

How the data were processed

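The authors deposited log2 intensities of 25697 probes on each of the 6 arrays. The submitters' processing notes list BeadStudio 3.2.3 and say no more of it, and no source used here states the background correction, the normalisation or the floor. Array medians differed by at most 0.00705, and 31.3% to 31.4% of the probes of an array lay at the floor (log2 of 0), so the values were used as deposited. Probes were named through the platform annotation (1 symbol for 23141 probes, several for 0, none for 2556). All 23141 gene IDs were in the RefSeq table of GRCm38.p6, which changed 0 symbols. No sequencing depth applies, and the number of arrays limits the precision.

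A probe was kept if it exceeded its array's 40th percentile (on average log2 3.96) on at least 3 arrays, which left 15657. The model, made in R 4.3.3 with limma 3.58.1, had a single term for group (lmFit, then eBayes with trend) and Benjamini-Hochberg adjustment over all kept probes. The procedure was tested on simulated data with independent normal noise for each probe and no floor. That checks the code and not how the test behaves on these arrays. Ratios of paralogues were compared by exact permutation tests. These genes and lists were chosen with earlier results of these data known, and the paralogue pairs and promoter motifs after the values were seen. Named were the 9 genes, all measured genes of the same families, up to 4 called genes of each other list (or its 2 brightest), and the 3 genes nearest to each called gene. Other genes named for their values, such as Foxo1, were chosen after those were seen. Of the marker lists the brightest and the called genes were named.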

Additional observations from a re-analysis of the deposited data

Results flagged for a closer look

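Cdk6 was lower in TRAF3KO among the arrays of inferred male sex (-0.91, log2, 1 TRAF3KO array against 2 Control arrays) and higher among those of inferred female sex (0.92, 2 against 1), with every TRAF3KO array of a sex on the same side of its Control arrays. The difference between the sexes was not tested, the probe is dim (mean log2 6.07), and the sexes were inferred from 2 genes.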

How the results depend on the processing

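Of the 9 genes, 2 were called as reported and under quantile normalisation, a filter at the 60th percentile, robust eBayes, array weights, the mean of probes and offsets of 16 and 50. The count was 1 with no filter on dim probes and with inferred sex as a block (Gadd45a in both), and 0 without a trend and without moderation (4 and 3 genes at an unadjusted p under 0.05). Leaving out 1 array gave 0 to 2 calls among the 9 genes, 0 without Control replicate 3 (4 at an unadjusted p under 0.05) and 1 without TRAF3KO replicate 1 or 3 or Control replicate 1. Over all genes, 457 were called, 114 with no filter, 65 without a trend, 37 without moderation and 227 to 382 without 1 array (282 and 278 without TRAF3KO replicates 1 and 2, 227 and 287 without Control replicates 1 and 3). With the replicate number as a block 3 of the 9 genes were called, Ccnd3 being added (adjusted p = 0.039), and 468 genes in all. Deviations of same-numbered arrays correlated at 0.030 to 0.044, each highest with its own number, a hint from the data only, so the numbers were not taken to pair the arrays. Of 572 values of the 32 named genes under 18 alternatives, 496 kept direction and call, 61 lost a call, 2 gained one and 13 changed sign, all 13 uncalled. Without 1 array Cdk6 lay between -0.56 and 0.37, Cdk2 between -0.05 and 0.01, Cdkn2a between -0.25 and 0.48, Rbx1 between -0.04 and 0.02, and Mapkapk2 between -0.09 and 0.04. Cdk6 turned to 0.00 with sex as a block, 0.05 without TRAF3KO replicate 1 and 0.37 without Control replicate 3. Cdkn2a turned to -0.15 without TRAF3KO replicate 1 and -0.25 without Control replicate 1, and Cdk2 to 0.01 without Control replicate 1. Rbx1 turned to 0.02 without replicate 2 of either group, and Mapkapk2 to 0.04 and 0.01 without TRAF3KO and Control replicate 2. Cdc34 turned to -0.00 with sex as a block, -0.02 without TRAF3KO replicate 2 and -0.03 without Control replicate 3. Of 144 list counts 33 moved by over 1.5 times. The cause was not tested. Dim probes limit Cdk6, Cdkn1a, the second probe of Cdkn1b and the dimmest probe of Ccnd3.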
